A study of Mus musculus with 6 samples.

Results

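Whether a lymphocyte stays in a tissue or leaves it depends in large part on sphingosine 1-phosphate (S1P), a lipid that is abundant in blood and lymph and scarce inside tissues. S1PR1 is the receptor that lets lymphocytes follow this gradient out of a tissue, FOXO1 drives the gene of the transcription factor KLF2, KLF2 in turn drives S1pr1, and CD69 binds S1PR1 and removes it from the cell surface. Type-2 innate lymphoid cells (ILC2s) are mostly tissue-resident cells, and low S1pr1 and Klf2 with high Cd69 is a pattern known from resident lymphocytes. The expression of 7 genes of this circuit and its relatives (S1pr1, S1pr4, Klf2, Klf3, Klf6, Cd69 and Foxo1), selected by gene name among the 53278 genes of the deposited table, was compared between ILC2s cultured with DTA-1, an agonistic antibody to the costimulatory receptor GITR, and ILC2s cultured with an isotype control antibody.

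All cells came from visceral adipose tissue of C57BL/6 mice of 8 weeks that had received recombinant IL-33 in 3 intraperitoneal injections (1 µg each), so both groups were activated before culture. Sorted ILC2s were then kept with IL-2 and IL-7 (10 ng/mL each) and 1 of the antibodies at 5 µg/mL, which the labels put at 48 h, although the study's text gives a shorter time in places. Each group had 3 libraries (n = 3), and the sources used here do not say how many mice contributed to a library, so p-values measure only the spread between these libraries. There was no group without IL-33 or without culture, and no group from another tissue.

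The libraries held 30569253 to 35131280 counts each, and a count of 0 allows up to 3 counts, or 0.0854 to 0.0981 CPM (counts scaled to a common library size), for counting error only. By a chi-square distance between the counts of library pairs (per degree of freedom, near 1 for counting noise alone), DTA-1 replicate 1 was nearer to the isotype control libraries (distances of 9.64 to 11.3) than to the other two DTA-1 libraries (27.1 and 28.2), whose own distance was 11.4. Pairs of isotype control libraries were 11.4 to 17.0 apart, so DTA-1 replicate 1 was nearer to each of them than they were to each other. Results with all 6 libraries thus include a DTA-1 library that was not apart from isotype control by this distance. DTA-1 replicate 1 was kept under its label, and values are also given with it left out. That choice was made from these same counts. The p-values without it rest on DTA-1 replicates 2 and 3 alone and cannot count as an independent test. Markers that define ILC2s were high in all 6 libraries, with 1525 to 1716 normalized counts (CPM after TMM scaling) for Gata3 and 1022 to 1286 for Il1rl1, which encodes ST2. Of markers of other cells, Cd8a, Ms4a1, Pax5, Ncr1, Klrb1c, S100a8, S100a9, C1qb, Cdh5, Cldn5 and Emcn were at 0 counts in every library. Other members of the same lists were detected: Cd3g had 36.2 to 48.6 normalized counts, Cd79b 16.4 to 17.8, Xcr1 44.4 to 47.7, Cd68 3.96 to 10.6 and Cpa3 4.37 to 19.4.

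The promoters of Klf2 and Klf3 are shown because Krüppel-like factors bind CACCC sequences and these are the members of that family whose own promoters held them. Sequences are from RefSeq (GRCm38.p6), 5′ to 3′ along the gene, 250 bases before and 50 bases after its start, and capitals mark CACCC or its reverse complement. Klf2 lies on the plus strand at chr8:72318812-72319111 and Klf3 on the plus strand at chr5:64803271-64803570.
Klf2: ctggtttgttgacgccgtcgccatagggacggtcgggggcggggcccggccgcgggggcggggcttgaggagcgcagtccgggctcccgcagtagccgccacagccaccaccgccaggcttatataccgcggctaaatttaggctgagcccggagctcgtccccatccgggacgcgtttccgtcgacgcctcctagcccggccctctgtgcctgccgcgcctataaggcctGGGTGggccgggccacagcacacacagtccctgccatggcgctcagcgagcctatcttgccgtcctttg
Klf3: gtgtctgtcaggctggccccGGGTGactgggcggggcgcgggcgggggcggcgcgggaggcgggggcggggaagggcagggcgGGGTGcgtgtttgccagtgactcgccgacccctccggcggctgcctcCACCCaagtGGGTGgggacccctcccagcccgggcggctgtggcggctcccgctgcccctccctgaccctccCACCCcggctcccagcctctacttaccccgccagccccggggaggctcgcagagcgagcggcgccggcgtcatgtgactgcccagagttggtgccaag
Klf2 held 1 match, from -19 to -15 relative to the RefSeq start, and Klf3 held 5. In both genes the RefSeq start lies downstream of the first position given for the gene below (72319033 for Klf2 and 64803388 for Klf3). Matches can thus lie inside the genes as given there. S1pr4 also held 1 match, and Klf6 and Foxo1 held 0. On both strands, 57.5% of all 32851 promoter windows of this length held CACCC. The FOXO sequence GTAAACA was found in 3.65% of windows and an NF-κB consensus in 4.51%, and neither was found in these 5 promoters. The table has no entry for S1pr1 and Cd69.

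With all 6 libraries, none of the 7 genes was differentially expressed by the study's threshold of an adjusted p under 0.05 with at least a 1.5-fold change (0 of 7 by edgeR's quasi-likelihood test, smallest adjusted p = 0.664 by edgeR). DESeq2's Wald test and limma-trend also called 0 of the 7. By edgeR 0% of the 14361 genes tested passed that threshold, with 590 higher and 447 lower at an unadjusted p under 0.05, and DESeq2 called 20 genes. All 7 genes passed the filter on low counts. The values of both groups overlapped in all 7 genes. The groups did not overlap in 11.3% of all genes tested, so overlap in 7 genes does not set these apart. The 95% confidence interval of the change lay inside 1.5-fold in both directions for 6 of the 7 genes (58.9% of all genes tested), S1pr1 being the exception. In RNA from a cell population, fewer cells that express a gene and less RNA per cell cannot be told apart.

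**Figure D1:**
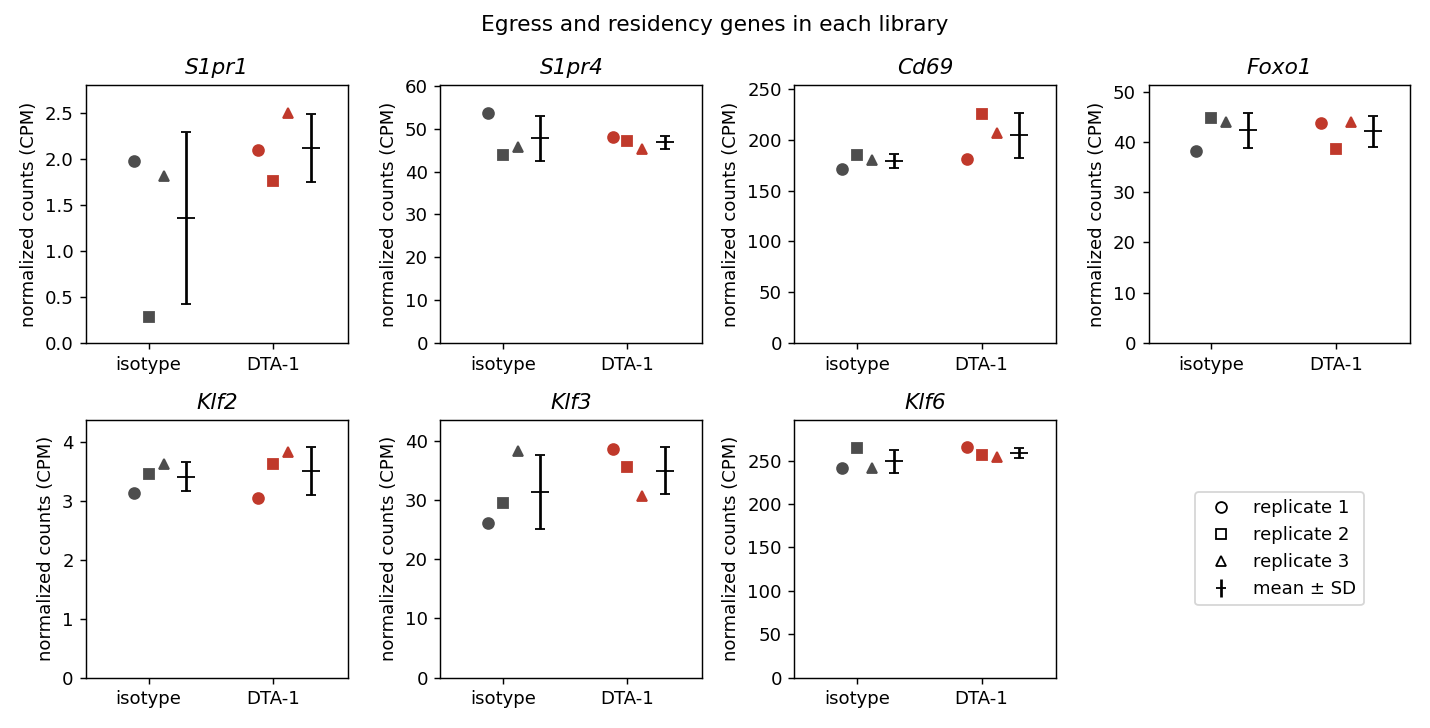
Normalized counts (CPM) of the 7 genes in each of the 3 isotype control (grey) and 3 DTA-1 (red) libraries, on axes that start at 0, with marker shape for the replicate number and mean ± SD beside the points. The groups overlap in every panel, and the S1pr1 panel has 1 isotype control library (replicate 2) at 0.285, far below the other 5 libraries.

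S1pr1, the egress receptor gene (chromosome 3, 115710433 to 115715072, minus strand, GRCm38), had 70, 10 and 64 counts in isotype control replicates 1, 2 and 3. In the DTA-1 libraries, in the same order, it had 65, 55 and 80 counts. In normalized counts this was 1.98, 0.285 and 1.81 with isotype control and 2.10, 1.76 and 2.51 with DTA-1. The 5 other libraries lay close together, and only isotype control replicate 2 was apart from them. Its 10 counts have an exact 95% Poisson interval of 4.8 to 18.4 counts, while the lower bounds of the others were 41.4 counts or more. On the log2 scale S1pr1 had a difference of 0.64, DTA-1 against isotype control (SE, the standard error, 0.56, interval −0.58 to 1.87, adjusted p = 0.837 by edgeR). With isotype control replicate 2 left out the difference was 0.16 (interval −0.62 to 0.9488, adjusted p = 0.945 by edgeR). It was 1.02 with isotype control replicate 1 left out and 0.65 with DTA-1 replicate 1 left out. The intervals given here reach past 1.5-fold, so a change of that size in S1pr1 was not excluded.
Isotype control replicate 2 held 34557156 counts, and its value for Klf2, the known activator of S1pr1, lay between those of the other isotype control libraries. Endothelial cells also express S1pr1 strongly, and the summed level of the 6 endothelial markers was 18.4 to 24.4 normalized counts in isotype control (18.4 in replicate 2) and 10.6 to 18.3 in DTA-1. The lowest sums, 10.6 and 11.4, were in DTA-1 replicates 2 and 3, where S1pr1 was 1.76 and 2.51. This sum was almost entirely Pecam1, and Cdh5, Cldn5 and Emcn were at 0 in all libraries. What set the low S1pr1 value of this library was not tested.

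S1pr4, an S1P receptor gene of lymphoid and myeloid cells (chromosome 10, 81497747 to 81500132, minus strand), exceeded S1pr1 by 23.0 to 34.7 times per kb of exon in 5 libraries and by 196 times in isotype control replicate 2. It had 53.8, 43.8 and 45.7 normalized counts with isotype control and 48.2, 47.1 and 45.2 with DTA-1. All 3 DTA-1 libraries lay within the range of the isotype control libraries, and isotype control replicate 1 was the highest. S1pr4 had a log2 fold change of −0.03 (SE 0.10, interval −0.25 to 0.19, adjusted p = 0.968 by edgeR), and it was 0.07 when isotype control replicate 1 was left out.

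Cd69, the activation and residency receptor gene (chromosome 6, 129267325 to 129275436, minus strand), came closest to a change. Its normalized counts were 172, 185 and 181 with isotype control and 181, 226 and 207 with DTA-1. DTA-1 replicates 2 and 3 were above all isotype control libraries, and DTA-1 replicate 1 was within their range. Cd69 thus had a log2 fold change of 0.19 (SE 0.08, interval 0.01 to 0.37), with an edgeR p of 0.0378 before adjustment and 0.664 after it. Cd69 was the 1 gene of the 7 with an unadjusted p under 0.05, where 4.11% of all genes tested were higher at that level.
With DTA-1 replicate 1 left out Cd69 had a log2 fold change of 0.27 (interval 0.12 to 0.42), with an edgeR p of 0.00249 before adjustment and an adjusted p of 0.0925 by edgeR. In that comparison 7.5% of genes were higher at an unadjusted p under 0.05, and 0.744% were differentially expressed, of which 0 were members. The summed level of the 5 mast cell and basophil markers moved with the same libraries, at 16.3, 18.8 and 15.5 normalized counts with isotype control and 14.6, 42.0 and 29.8 with DTA-1. Within this list Cpa3 and Cma1 followed that pattern, and Tpsb2 was above the isotype control range only in DTA-1 replicate 2 (8.26). Mcpt8 went the other way, at 0.192 in DTA-1 replicate 2 against 0.656 to 1.16 with isotype control. Mast cells can also express Cd69, and the part of this sum in the Cd69 values was not tested. The lowest log2 fold change of Cd69, 0.12, came with DTA-1 replicate 2 left out. Over all alternatives the edgeR, DESeq2 or limma adjusted p of Cd69 ranged from 0.0925 to 0.999, and the interval with all 6 libraries did not reach 1.5-fold.

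**Figure D2:**
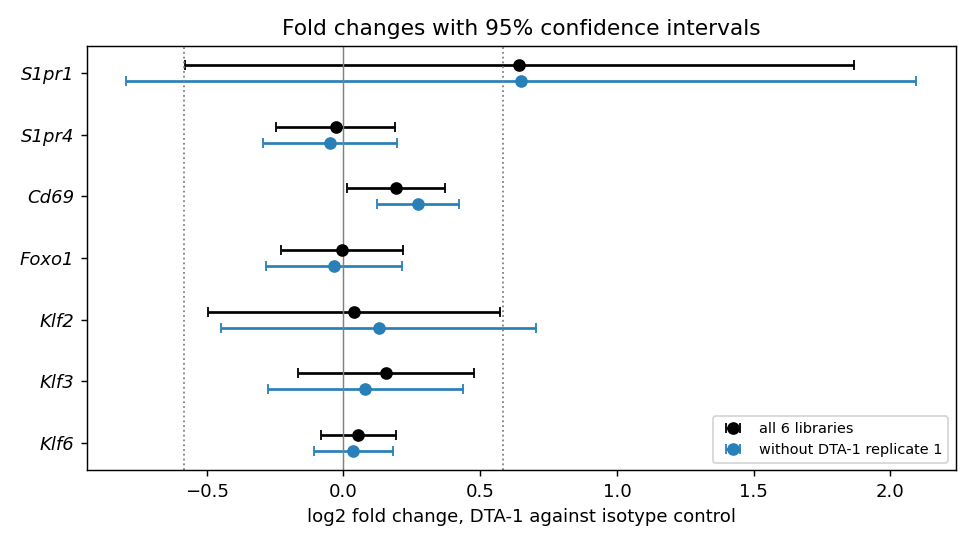
Log2 fold change of DTA-1 against isotype control for each gene with its 95% confidence interval, with all 6 libraries (black) and with DTA-1 replicate 1 left out (blue); dotted lines mark 1.5-fold. With all 6 libraries the interval of Cd69 (0.01 to 0.37) lies above 0 and short of 1.5-fold, and S1pr1 has the widest interval (−0.58 to 1.87).

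Foxo1, which encodes a transcription factor held out of the nucleus by PI3K and AKT signalling (chromosome 3, 52268336 to 52353221, plus strand), had 38.2, 44.7 and 44.0 normalized counts with isotype control and 43.8, 38.5 and 44.0 with DTA-1. Both groups covered nearly the same range. The difference was −0.01 on the log2 scale (SE 0.10, interval −0.23 to 0.22, adjusted p = 0.995 by edgeR), the smallest of the 7. These are RNA levels, and the place of FOXO1 protein in the cell was not measured.

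Klf2, the activator of S1pr1 (chromosome 8, 72319033 to 72321656, plus strand), was low in all libraries. It had 111, 121 and 128 counts with isotype control and 94, 113 and 122 with DTA-1, or 3.14, 3.45 and 3.63 against 3.04, 3.62 and 3.83 normalized counts. The highest and the lowest library were both DTA-1 libraries. Klf2 had a log2 fold change of 0.04 (SE 0.24, interval −0.50 to 0.57, adjusted p = 0.983 by edgeR), which became 0.13 with DTA-1 replicate 1 left out, with an interval to 0.70 that reaches past 1.5-fold.

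Klf3, which encodes a repressor of the same family (chromosome 5, 64803388 to 64832901, plus strand), varied most among the isotype control libraries after S1pr1. Its normalized counts were 26.2, 29.6 and 38.3 with isotype control and 38.6, 35.6 and 30.7 with DTA-1. Isotype control replicate 3 lay with the DTA-1 libraries, and the other two isotype control libraries lay below them. Klf3 had a log2 fold change of 0.16 (SE 0.15, interval −0.16 to 0.48, adjusted p = 0.852 by edgeR). It was 0.33 with isotype control replicate 3 left out, with an edgeR p of 0.0376 before adjustment and 0.9496 after it, and 0.05 with isotype control replicate 1 left out.

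Klf6, a widely expressed activator of this family that is induced early in activated cells (chromosome 13, 5861482 to 5870394, plus strand), was the most abundant of the 7 genes. It had 241, 265 and 241 normalized counts with isotype control and 265, 257 and 254 with DTA-1. The DTA-1 libraries lay together at the upper end of the isotype control range. Klf6 had a log2 fold change of 0.05 (SE 0.06, interval −0.08 to 0.19, adjusted p = 0.887 by edgeR), the narrowest interval of the 7.
Reads in 2 of the genes can overlap other annotated genes, and whether strand was used in counting is not given in the sources used here. Klf3 overlaps Gm20033 and C230096K16Rik, with at most 25 and 40 counts in a library against 927 or more for Klf3. Foxo1 overlaps Gm20402 and Gm38034, with at most 163 and 23 counts against 1203 or more for Foxo1. 

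To compare the genes with each other, normalized counts were divided by the length of the merged exons in GENCODE M21. Per kb, Klf6 was highest (56.7 ± 3.11 with isotype control and 58.9 ± 1.34 with DTA-1, mean ± SD, n = 3 each), followed by Cd69 (27.5 ± 1.05 and 31.4 ± 3.45) and S1pr4 (20.0 ± 2.22 and 19.6 ± 0.628). Foxo1 (4.88 ± 0.411 and 4.86 ± 0.358), Klf3 (2.79 ± 0.557 and 3.11 ± 0.351) and Klf2 (1.84 ± 0.135 and 1.89 ± 0.221) came next, and S1pr1 was lowest (0.446 ± 0.307 and 0.698 ± 0.123). Within each group no library of a gene overlapped those of its neighbour in this order, so the order was the same with DTA-1 and with isotype control.
Among the 14069 tested genes with an exon length, Klf6 lay between percentiles 91.9 and 93.1 of the level per kb in the 6 libraries, and Cd69 between 83.3 and 87.0. Klf2 lay between percentiles 32.6 and 36.3. S1pr1 lay between percentiles 3.53, in isotype control replicate 2, and 23.7. Per kb, Cd69 exceeded S1pr1 by 38.6 to 60.0 times in 5 libraries and by 304 times in isotype control replicate 2, and Klf6 exceeded Klf2 by 27.9 to 36.7 times in all 6. The merged exons of Klf3 (11.2 kb), Cd69 (6.51 kb) and Klf6 (4.39 kb) each join several annotated transcripts. This lowers the level per kb of these genes where shorter transcripts are used.

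**Figure D3:**
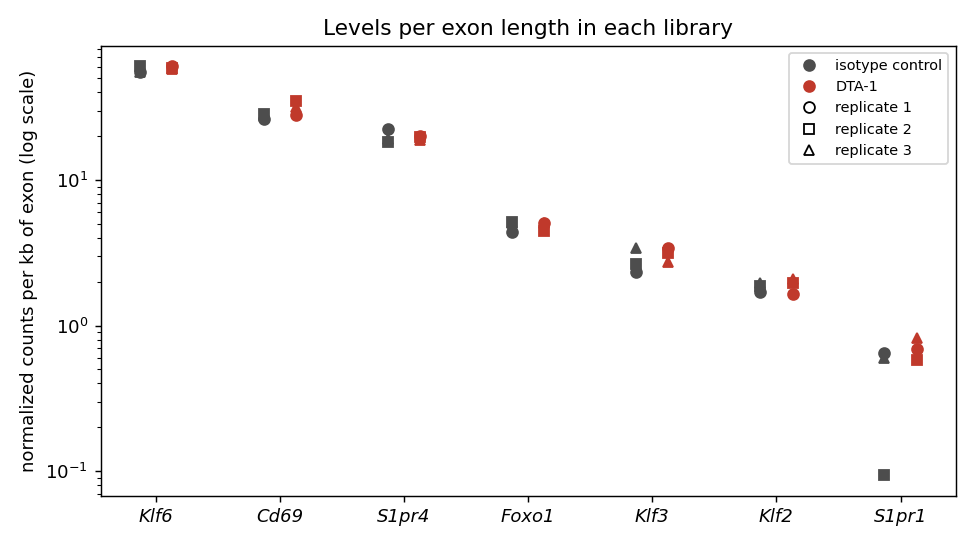
Normalized counts per kb of merged exons (log axis) of the 7 genes in each library, isotype control in grey and DTA-1 in red, ordered by the isotype control mean. Klf6, Cd69 and S1pr4 sit above 18 in every library, Klf2 between 1.65 and 2.07 and S1pr1 at or below 0.824, with isotype control replicate 2 at 0.094.

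Of 82 further symbols of the S1P, KLF, FOXO, recirculation and residency lists (81 in the table), 65 were tested, and edgeR called 0 of them differentially expressed (smallest adjusted p = 0.627 by edgeR), with 4 at an unadjusted p under 0.05, where 7.22% of all genes tested were at that level. DESeq2's Wald test and limma-trend also called 0. Of the 65 genes 32 had a higher mean with DTA-1 and 33 a lower mean, and their median log2 fold change was −0.0005, against −0.01 over all genes tested. Medians by list ran from −0.07 for genes of tissue-resident lymphocytes to 0.03 for the S1P pathway and the other KLF genes. Of the 65 genes, 3 were higher and 4 lower in every DTA-1 library than in every isotype control library. Of the 14361 genes tested, 755 were higher and 866 lower in this way, so the list genes were near that share.

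In the S1P list 13 of 18 symbols were tested, 10 with a higher and 3 with a lower mean. Over all 14361 genes tested, 6901 had a higher and 7460 a lower mean. S1pr2, a receptor that opposes migration, had 41.3, 37.4 and 52.2 normalized counts with isotype control and 39.2, 57.2 and 54.6 with DTA-1 (log2 fold change 0.21, SE 0.16, adjusted p = 0.808 by edgeR). S1pr3, a receptor of stromal and vascular cells, had 14, 12 and 52 counts with isotype control and 0, 8 and 9 with DTA-1. Every DTA-1 library was below every isotype control library for S1pr3, as for 866 of the 14361 genes tested. Its log2 fold change of −2.01 had a standard error of 0.93 (adjusted p = 0.692 by edgeR). It was −1.02 with isotype control replicate 3 left out and −2.49 with DTA-1 replicate 3 left out. The summed level of the 7 fibroblast markers was 2.2 to 8.39 normalized counts in isotype control and 0 to 3.98 in DTA-1. Like S1pr3, it was highest in isotype control replicate 3 and 0 in DTA-1 replicate 1. In DTA-1 replicate 3 the sum (3.98) was above isotype control replicate 2 (2.2), where S1pr3 was 0.282 against 0.342. The part of this sum in the S1pr3 values was not tested. S1pr5 had 4 counts in isotype control replicate 2 and 0 in the others, where a count of 0 allows up to 3 counts, and it did not pass the filter. Sgpl1, which encodes the lyase that degrades S1P, had a mean of 130 ± 6.42 with isotype control and 145 ± 9.39 with DTA-1 (SD, n = 3 each; log2 fold change 0.15, adjusted p = 0.702 by edgeR). Sgpp1, an S1P phosphatase gene, had means of 97.9 and 88.4 (log2 fold change −0.15, adjusted p = 0.748 by edgeR).

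Of the other KLF genes 10 of 14 were tested, 6 with a higher and 4 with a lower mean. Klf7 and Klf11 were higher in every DTA-1 library than in every isotype control library, 2 of 10 genes, where 755 of the 14361 genes tested were. Klf7 had 46.8, 42.7 and 48.9 normalized counts with isotype control and 49.2, 53.8 and 55.5 with DTA-1 (log2 fold change 0.20, SE 0.09, adjusted p = 0.700 by edgeR). Klf11 had 6.10, 6.13 and 6.43 against 7.73, 7.66 and 7.31 (log2 fold change 0.28, SE 0.17, adjusted p = 0.752 by edgeR). Klf10, a gene induced by TGF-β, overlapped between groups, with a log2 fold change of −0.17 (adjusted p = 0.744 by edgeR).

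Among FOXO genes and their regulators 14 of 15 were tested, 7 higher and 7 lower. Foxo3, a relative of Foxo1, had a log2 fold change of −0.37 (SE 0.21, adjusted p = 0.738 by edgeR). Inpp5d, which encodes the phosphatase SHIP1, had a log2 fold change of 0.14 (adjusted p = 0.764 by edgeR).
All 9 genes listed as FOXO1 targets in lymphocytes were tested, 4 higher and 5 lower. Il7r, which encodes the IL-7 receptor alpha chain, had 84.4, 107.8 and 96.4 normalized counts with isotype control and 95.5, 95.9 and 91.8 with DTA-1 (log2 fold change −0.03, interval −0.23 to 0.17, adjusted p = 0.964 by edgeR). Tcf7 and Ccng2 had log2 fold changes of −0.32 and 0.09 (SE 0.30 and 0.08, adjusted p = 0.852 and 0.847 by edgeR). Btla, an inhibitory receptor gene, had 41, 60 and 59 counts with isotype control and 6, 12 and 73 with DTA-1. Its log2 fold change of −0.66 (SE 0.72, adjusted p = 0.878 by edgeR) was −2.37 with DTA-1 replicate 3 left out and −0.18 with DTA-1 replicate 1 left out.

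Of the genes of recirculating lymphocytes 6 of 9 were tested, 3 higher and 3 lower. Ccr7, the lymph node homing receptor gene, had 30, 77 and 76 counts with isotype control and 44, 72 and 49 with DTA-1. Its groups overlapped, with a log2 fold change of 0.02 and an SE of 0.42 (adjusted p = 0.995 by edgeR). S1pr5, Eomes and Cxcr4 did not pass the filter. Itgb7, the integrin beta 7 gene, had 1272, 1303 and 1290 normalized counts with isotype control and 1264, 1064 and 1103 with DTA-1, −0.17 on the log2 scale (interval −0.33 to −0.02, adjusted p = 0.657 by edgeR). Each DTA-1 library was below each isotype control library for Itgb7, as for 866 of the 14361 genes tested. With DTA-1 replicate 1 left out it was −0.25 (adjusted p = 0.0360 by edgeR), short of 1.5-fold, where 0.342% of genes were lower at that adjusted p and any fold.

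Among genes of tissue-resident lymphocytes 17 of 22 were tested with all 6 libraries, 5 with a higher and 12 with a lower mean. The split over all 14361 genes tested was 6901 higher and 7460 lower, and no test of the list was run. Bhlhe40, which encodes a transcription factor of activated and resident lymphocytes, had 237, 267 and 254 normalized counts with isotype control and 261, 456 and 436 with DTA-1. Icos, a costimulatory receptor gene, had 156, 173 and 157 against 157, 99.0 and 98.4. For both genes DTA-1 replicate 1 lay in the isotype control range and the other two DTA-1 libraries outside it, on opposite sides. With all 6 libraries the log2 fold changes were 0.61 for Bhlhe40 and −0.46 for Icos (standard errors 0.17 and 0.15, edgeR adjusted p = 0.627 for each).
With DTA-1 replicate 1 left out, a choice made from these same counts, the log2 fold change was 0.82 for Bhlhe40 and −0.71 for Icos. Their adjusted p values were then 0.000204 and 0.00129 by edgeR. Bhlhe40 and Icos were the 2 of 66 list genes called in that comparison, where 0.744% of all genes tested were called. The mast cell and basophil marker sum was also highest in DTA-1 replicates 2 and 3 (42.0 and 29.8 normalized counts, against 14.6 to 18.8 in the other libraries). This lay mainly in Cma1 (14.2 and 10.9) and Cpa3 (19.4 and 12.8). Mcpt8 of the same list was 0.192 and 0.690 there, against 0.656 to 1.16 with isotype control. The part of this sum in the Bhlhe40 and Icos values was not tested. Over the alternatives their adjusted p values reached 0.999. Litaf was lower in every DTA-1 library (36.7, 27.5 and 29.6 against 23.8, 25.1 and 26.4 normalized counts), as were 866 of the 14361 genes tested. Its log2 fold change was −0.32 (SE 0.13, adjusted p = 0.656 by edgeR).

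**Figure D4:**
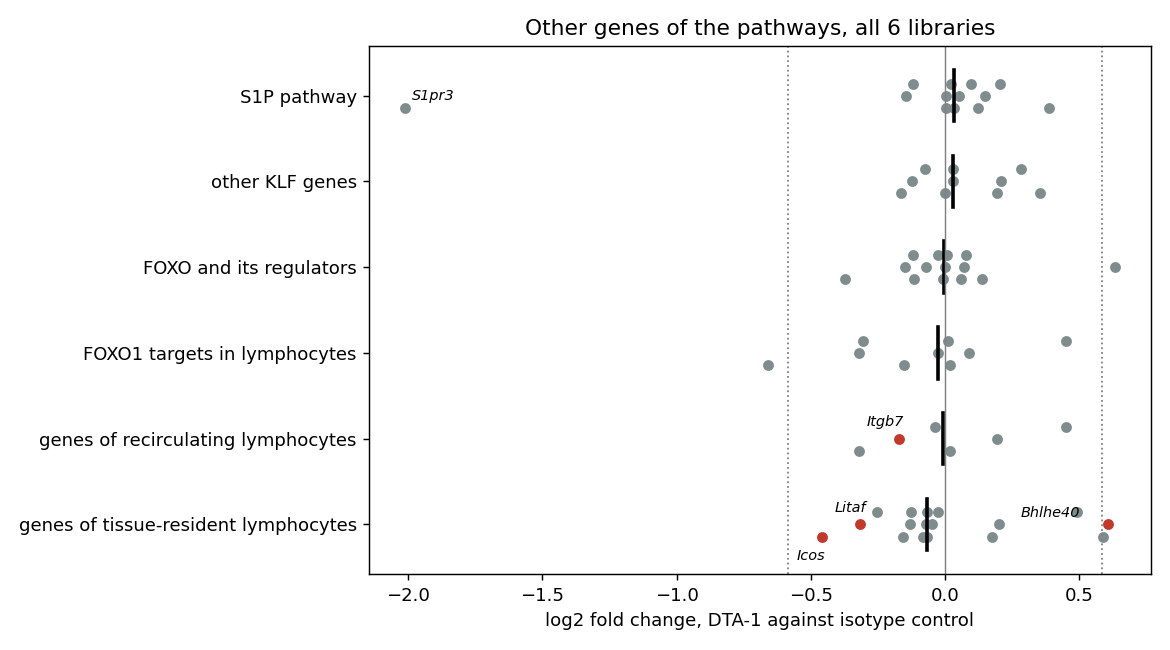
Log2 fold change of DTA-1 against isotype control for each tested gene of the 6 lists (points, red at an unadjusted edgeR p under 0.05), with the median of each list as a black bar and dotted lines at 1.5-fold. The medians lie between −0.07 and 0.03, and Bhlhe40 (0.61) and Icos (−0.46) are the outer red points.

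The genes most like each member across the 6 libraries were found by the Pearson r of log2 CPM, among genes with a mean of at least 10 normalized counts. This is a description over 6 points that share libraries, among about 8722 genes, and high values are common in it: from 10 genes for Klf3 to 112 for Cd69 had an r over 0.95. Closest to S1pr1 were Klhl18 and Lrr1 (r = 0.968 each). Both were lowest in isotype control replicate 2, at 15.1 and 10.2 normalized counts, which follows from picking them by r with S1pr1. Closest to S1pr4 were Ap5b1 (0.988) and Gpx4 (0.986), and closest to Klf2 were Bcam (0.992) and Kif18b (0.990). Klf3 was nearest to Sgk1 (0.982), a kinase gene that is also on the list of FOXO regulators, and to Ddx20 (0.975). Klf6 was nearest to Gpr34 and Stag1 (0.998 each) and Foxo1 to Rfx7 (0.995) and Slc31a1 (0.993). Cd69 was nearest to Gm45713 (0.996) and to Sema3a (0.989), which had 14.8, 19.9 and 17.5 normalized counts with isotype control and 17.2, 36.4 and 31.0 with DTA-1.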

How the data were processed

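RNA of sorted mouse ILC2s was sequenced in 3 isotype control and 3 DTA-1 libraries. The authors deposited expected counts (estimated per gene, not normalized), of which 77.8% were exactly whole (tolerance 0). By the submitters' processing notes, bcl2fastq 2.17.1.14, STAR 2.5.3a, Partek and mm10 were used. The annotation release and the use of strand are not given in the sources used here. Of 49618 symbols shared with GENCODE M21 (GRCm38), 48190 had the same start.

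Counts were rounded, filtered with filterByExpr and TMM-normalized, and DTA-1 was compared with isotype control by the quasi-likelihood test of edgeR, with p adjusted (Benjamini-Hochberg) over the 14361 genes kept. The SE was derived from the F statistic. The calling of genes was tested on simulated data with known changes, and the SE and intervals were not. The study's threshold was used. Exact permutation of 3 against 3 libraries cannot reach 0.05, so none was run. Tools were R 4.3.3, edgeR 4.0.16, limma 3.58.1, DESeq2 1.42.0, Python 3.11.15, pandas 2.3.3, numpy 2.4.6, scipy and matplotlib 3.10.9.

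The members and lists were chosen with earlier results of these data known. From the lists, genes were named where an adjusted p was under 0.05 with all libraries or without DTA-1 replicate 1, as the 3 with the smallest p in each list, and always S1pr2, S1pr3, S1pr5, Ccr7 and Il7r; a few genes that this rule or the marker lists name are not reported here. The alternatives were other scalings (DESeq2 size factors, total counts), DESeq2's Wald test, limma-trend (prior count 2), a filter of 1 count in all or of 10 counts per library, replicate number as a blocking term, leaving out each library, an unadjusted p, and dropping the fold limit.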

Additional observations from a re-analysis of the deposited data

How the results depend on the processing

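The count of members called stayed at 0 under all 15 alternatives. Over all genes the count of 0 became 20 with DESeq2's Wald test, 2 without the filter on low counts, 1 with the replicate block and 337 at an unadjusted p with 1.5-fold, and it ranged from 0 to 111 with 1 library left out, the 111 without DTA-1 replicate 1. For the list genes it became 1 at the unadjusted p (Bhlhe40) and ranged from 0 to 2 with 1 library left out. The study's methods state no pairing, so the replicate numbers were not taken as pairs. Same-numbered libraries did not deviate together (r from −0.0069 to 0.0152), and the replicate block changed no call among members or list genes. The sign of 3 log2 fold changes near 0 was not stable. With 1 library left out S1pr4 ranged from −0.087 to 0.069, Klf2 from −0.032 to 0.13 and Foxo1 from −0.070 to 0.060, and Klf2 was −0.00071 with total counts. In the other 84 of 91 member values the direction held. At 128 counts or fewer per library, S1pr1 and Klf2 had the widest intervals. The cause of these shifts was not tested.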
